A study of Arabidopsis thaliana with 26 samples.

Results

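Gene expression in Arabidopsis roots 9 min after KNO3 was compared with that 9 min after KCl, on 4 of the 26 ATH1 arrays of a time course, 2 for each salt. The 4 arrays were picked by their labels alone (salt and time), and the spread between replicates was estimated over 18 arrays, those of time 0 and of 9 to 20 min, which form 9 groups of 2. The plants were of the Columbia ecotype, labelled 14 days old, grown in hydroponics on ammonium succinate and then kept for a day in continuous light on medium with no nitrogen. They were moved to fresh nitrogen-free medium with KNO3 in the treated group, or with KCl at the same concentration in the control group, while time 0 plants were harvested before that move. All groups thus share the day without nitrogen, and both salt groups share the potassium and the transfer itself. Roots were harvested whole, and the arrays of a group are described as biological replicates. In whole roots, fewer cells of a type and less RNA per cell cannot be told apart.

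Nitrate is both a nutrient and a signal for roots. Its arrival switches on genes for its own uptake and reduction, for the supply of reducing power and carbon skeletons, and for transcription factors that tune the response, among them the GARP-type MYB factors of the HRS1/HHO family. The oxidative pentose phosphate pathway makes NADPH in plastids and cytosol, and in roots that NADPH feeds nitrite reduction. KCl gives the same cation with chloride in place of nitrate, so both salts share the handling of the plants.

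At 9 min, 99 probe sets rose with KNO3 and 58 fell. A probe set is a group of short oligonucleotides designed to read a gene, or sometimes several like ones, and it was called at a Benjamini-Hochberg adjusted p under 0.05 in limma. The 157 calls were 0.69% of the 22746 probe sets tested (0.435% higher and 0.255% lower), and 2377 had an unadjusted p under 0.05. The median log2 fold change was 0.89 among the rises (1.86-fold, range 0.5 to 2) and -0.99 among the falls (1.98-fold, range -2.81 to -0.51), beside -0.06 over all probe sets. The salts did not overlap in any of the 157, which also held for 49.4% of all probe sets. A single gene was listed for 74 of the calls, several for 8 and none for 75, so many of the calls are unnamed here. List members without a named probe set may be among the unnamed ones, so nothing is said of them below. The brighter salt lay above the 25th percentile of signal (52.8 units) in every call, as the plot of all probe sets shows.

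**Figure D1:**
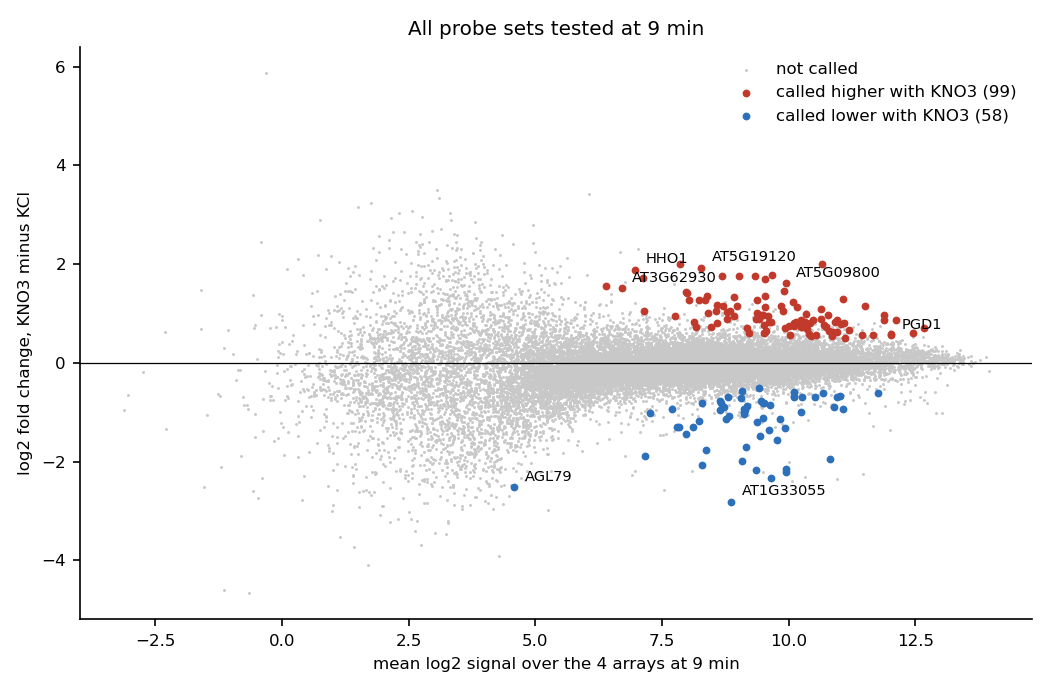
Log2 fold change at 9 min, KNO3 minus KCl, against the mean log2 signal of the 4 arrays, for the 22746 probe sets tested (1 point each). The 99 rises reach 2 and the 58 falls reach -2.81, while many dim probe sets scatter more widely without being called.

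How many probe sets passed depended on single arrays. Without KNO3 replicate 1 the count was 47, without KNO3 replicate 2 it was 17, without KCl replicate 1 it was 133 and without KCl replicate 2 it was 19. Falls numbered 18, 1, 27 and 1 in the same order, and none passed without the intensity trend of limma, where 16 rises did. Of 38 named calls none changed direction under the alternatives checked gene by gene. The sequential model and the fits added after seeing the data, described with the processing, were not checked in that way. The calls of 4 genes held under every alternative run for them, and these were AT5G09800, ASPGB1, AT1G25550 (HHO3) and PGM. With AT5G19120 they were the 5 that passed with each of the 4 arrays left out, and none of the 14 named falls did.

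HHO1 and HHO3, transcription factors of the HHO family, were among the named rises. HHO1 (AT3G25790), a MYB factor, read 221 and 263 signal units with KNO3 against 56.4 and 74.6 with KCl, and 57.4 and 99.7 at time 0. Among these 6 arrays both KNO3 arrays lay above the rest, and the KCl arrays overlapped time 0. The log2 fold change was 1.89 ± 0.26 (SE, 3.71-fold, limma adjusted p 0.0021), and 1.77 with an adjusted p of 0.064 without KNO3 replicate 2. HHO3 (AT1G25550) read 637 and 609 with KNO3 against 259 and 306 with KCl, and 263 and 202 at time 0, a log2 fold change of 1.15 ± 0.15 (adjusted p 0.002). HHO2 (AT1G68670), the other HHO gene with a named probe set, read 344 and 376 with KNO3 against 275 and 252 with KCl. Its log2 fold change of 0.45 did not pass (adjusted p 0.18), and AT3G60320, also on the list of nitrate regulators, stood at -0.15 (adjusted p 0.73). Of 27 listed regulators of the nitrate response only these 4 had a named probe set, with 2 called higher (0.435% of all probe sets), none lower, and a median of 0.8.

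The gap between the salts for the HHO genes was wider at later times. HHO1 reached 1331 and 1126 with KNO3 at 20 min against 66.4 and 72.5 with KCl, a log2 fold change of 4.14, which was 2.25 above that at 9 min (limma test of the difference, adjusted p 0.0086). For HHO3 the gap at 20 min was 2.78, which was 1.63 above that at 9 min (adjusted p 0.0024), and for HHO2 it was 1.8, which was 1.35 above (adjusted p 0.0033). Such differences were called higher for 0.554% of all probe sets, and they share the 9 min arrays with the comparison at 9 min.

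Of the pathway that supplies reducing power, 2 dehydrogenase genes rose. PGD3 (AT5G41670), a 6-phosphogluconate dehydrogenase of the oxidative pentose phosphate pathway, read 2459 and 2725 with KNO3 against 1589 and 1335 with KCl, and 1733 and 1551 at time 0. Its log2 fold change was 0.83 ± 0.13 (adjusted p 0.0073), and it was lost without KNO3 replicate 2 (adjusted p 0.14) or KCl replicate 2 (adjusted p 0.2). PGD1 (AT1G64190), a second such enzyme, read 4861 and 5357 with KNO3 against 3480 and 3403 with KCl, and 3298 and 3560 at time 0. In both genes the salts did not overlap and the KCl arrays stood near time 0. The log2 fold change of PGD1 was 0.57 ± 0.11 (adjusted p 0.031), the smallest of the named calls, and leaving out any of the 4 arrays raised its adjusted p to between 0.081 and 0.4. AT3G02360, also on the list of this pathway, read 6035 and 6006 with KNO3 against 6013 and 6118 with KCl, and its log2 fold change of -0.01 had a standard error of 0.11. A further listed locus, AT1G12230, stood at 0.41 (adjusted p 0.14). Of 23 listed genes of the pathway and of ferredoxin reduction 4 had a named probe set, 2 were called higher and none lower (0.435% and 0.255% of all probe sets), and the median was 0.49.

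Carbon and amino acid metabolism each gave a call. PGM (AT1G78050), of the phosphoglycerate mutase family, read 1032 and 1128 with KNO3 against 510 and 613 with KCl, and 452 and 506 at time 0. The log2 fold change was 0.95 ± 0.12 (adjusted p 0.00076), and at 20 min the gap was 2.84, which was 1.89 above that at 9 min (adjusted p 4.5e-05). ASPGB1 (AT3G16150), which codes for an asparaginase, an enzyme that frees ammonium from asparagine, read 1303 and 1463 with KNO3 against 679 and 559 with KCl, and 789 and 773 at time 0. Its log2 fold change was 1.16 ± 0.14 (adjusted p 0.00048). ASPGB1 ran the other way from PGM over time, since its KCl arrays reached 1263 and 1269 at 20 min, beside 1480 and 1330 with KNO3, and the gap there was 1.02 below that at 9 min (adjusted p 0.019). The cytosolic glyceraldehyde phosphate dehydrogenase gene GAPC2 (-0.03, adjusted p 0.97) and the second asparaginase gene, ASPGA1 (-0.06, adjusted p 0.92), did not pass. Most of the nitrate transport and reduction list could not be read, as only 2 of 21 genes had a named probe set. Neither passed, the nitrate transporter NRT2.5 at 0.08 ± 0.21 and AT2G43760 at 0.24 ± 0.15.

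The largest named rise was AT5G19120, annotated as pepsin A, with 642 and 574 with KNO3 against 144 and 176 with KCl, and 116 and 125 at time 0. Its log2 fold change was 1.93 ± 0.21 (3.81-fold, adjusted p 0.00023), and the adjusted p was 0.22 when the spread was taken from all 26 arrays. AT5G09800, a U-box protein, of the class that includes ubiquitin ligases, had the smallest adjusted p among the named genes. It read 1725 and 1733 with KNO3 against 606 and 521 with KCl, and 406 and 480 at time 0 (log2 fold change 1.62 ± 0.14, adjusted p 3.7e-05). The KNO3 arrays of both genes lay far above the 4 others. AT3G62930, of the glutaredoxin family, read 178 and 175 with KNO3 against 60.4 and 63.7 with KCl, and 102 and 101 at time 0 (log2 fold change 1.51 ± 0.32, adjusted p 0.046). It lost its call with each of the 4 arrays left out (adjusted p 0.14 to 0.43). It was the only 1 of 14 plant-specific CC-type glutaredoxins with a named probe set past the threshold, beside 0.435% of all probe sets called higher. The list had a median of -0.05, which was 0.04 with an offset of 32 and 0.11 after quantile normalization. AT5G67390 (1.72, adjusted p 0.002), AT4G40070, a zinc-binding protein (1.28, adjusted p 0.012), and AT3G15760 (1.05, adjusted p 0.02) rose too. AT4G40070 lost its call with each of the 4 arrays left out.

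**Figure D2:**
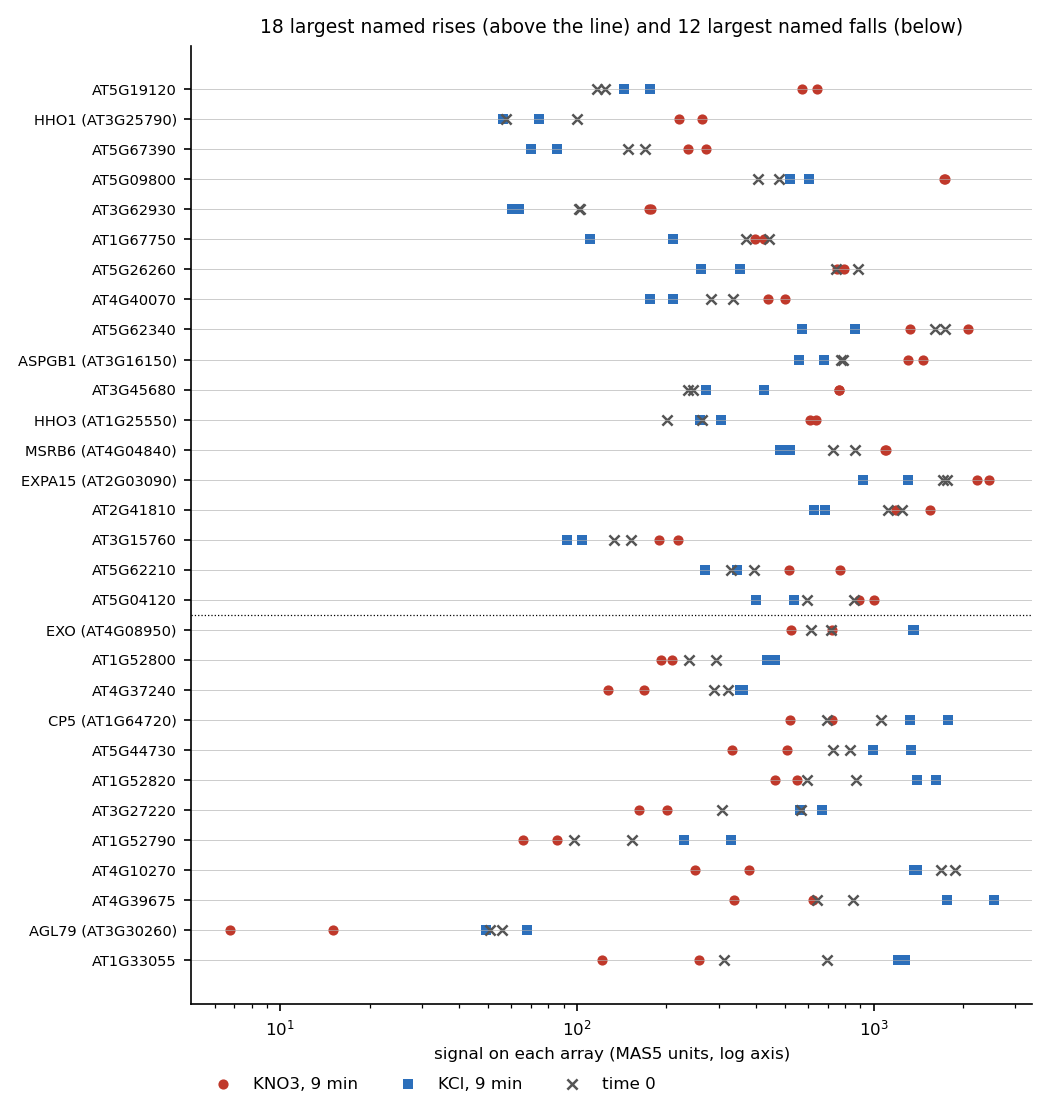
Signal on each array (log axis, MAS5 units) of the 18 largest named rises, above the dotted line, and the 12 largest named falls, below it, with KNO3 at 9 min as red circles, KCl at 9 min as blue squares and time 0 as grey crosses. Red and blue never overlap within a row, and time 0 lies with KCl in some rows (HHO1, HHO3, AT4G10270) and with KNO3 in others (AT1G67750, AT5G26260, EXO).

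In a second group of rises the KNO3 arrays stayed at the level of time 0 while the KCl arrays lay below it. AT1G67750 read 397 and 425 with KNO3 against 211 and 110 with KCl, and 372 and 442 at time 0. The log2 fold change between the salts was 1.43 ± 0.23 (adjusted p 0.0084), with 0.02 for KNO3 against time 0 (adjusted p 1) and -1.41 for KCl against time 0 (adjusted p 0.0055). KCl replicate 2 was the lowest array, and without it the log2 fold change was 0.96 (adjusted p 0.12). AT5G26260 showed the same levels, with 753 and 795 with KNO3 against 355 and 262 with KCl, and 883 and 745 at time 0 (log2 fold change 1.34, adjusted p 0.036), a call lost with each of the 4 arrays left out. For AT5G62340 the fold change was 1.24 (adjusted p 0.037), with -0.01 for KNO3 and -1.25 for KCl against time 0. The comparisons with time 0 share arrays with that between the salts, so they describe the same levels. EXPA15, an expansin, a protein that loosens cell walls, read 2230 and 2447 with KNO3 against 1305 and 916 with KCl, and 1770 and 1706 at time 0 (log2 fold change 1.1 ± 0.21, adjusted p 0.028), with time 0 between the salts. EXPA15 was the only 1 of 10 expansin-A genes with a named probe set that passed, beside 0.435% of all probe sets called higher. The median of the 10 was 0.51, beside -0.06 over all probe sets, and the family was picked after its values were seen.

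The root hair expansins EXPA7 and EXPA18, markers of that cell type, had levels like these without passing between the salts. EXPA7 read 722 and 808 with KNO3 against 516 and 549 with KCl, and 829 and 1191 at time 0 (0.52, adjusted p 0.27). EXPA18 read 926 and 995 with KNO3 against 627 and 728 with KCl, and 1003 and 1385 at time 0 (0.51, adjusted p 0.26). Both were lower with KCl than at time 0 (-0.9, adjusted p 0.021 for EXPA7 and -0.8, adjusted p 0.031 for EXPA18). These were the 2 of 7 root hair markers with a named probe set, and their part in the group of rises above was not tested. The marker lists of other root tissues (stele, endodermis, non-hair epidermis, meristem and cap) had no named probe set and were not analysed. Of 21 photosynthesis genes the 2 with a named probe set, LHCB4.1 (176 and 207 with KNO3 against 157 and 144 with KCl) and RCA (177 and 177 against 167 and 156), did not pass, at 0.34 (adjusted p 0.92) and 0.13 (adjusted p 0.98). On 2 later arrays of the fit these genes stood high. LHCB4.1 read 1409 and RCA 1582 on KNO3 replicate 1 at 15 min, against 217 and 199 on replicate 2, and 523 and 726 on KNO3 replicate 2 at 12 min, against 224 and 240 on replicate 1. Without these 2 arrays, an alternative added after seeing the data, 304 probe sets were called at 9 min (172 higher, 132 lower), with all 157 among them, and 651 for KCl against time 0.

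Over the whole set of rises, the median was 0.49 for KNO3 against time 0 (quartiles 0.19 and 0.93) and -0.33 for KCl against time 0 (quartiles -0.66 and -0.06). Among the falls the medians were -0.25 for KNO3 and 0.68 for KCl. Across all probe sets KNO3 at 9 min differed from time 0 in 175 (165 higher, 10 lower, 0.769% in all), and KCl at 9 min in 328 (212 higher, 116 lower, 1.44% in all). The KCl control had moved away from time 0 by 9 min, with 192 such calls without KCl replicate 1 and 47 without KCl replicate 2. The count for KNO3 against time 0 was 76 without KNO3 replicate 1 and 79 without KNO3 replicate 2. Higher calls were 0.725% of all probe sets for KNO3 and 0.932% for KCl, and lower calls 0.044% and 0.51%.

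**Figure D3:**
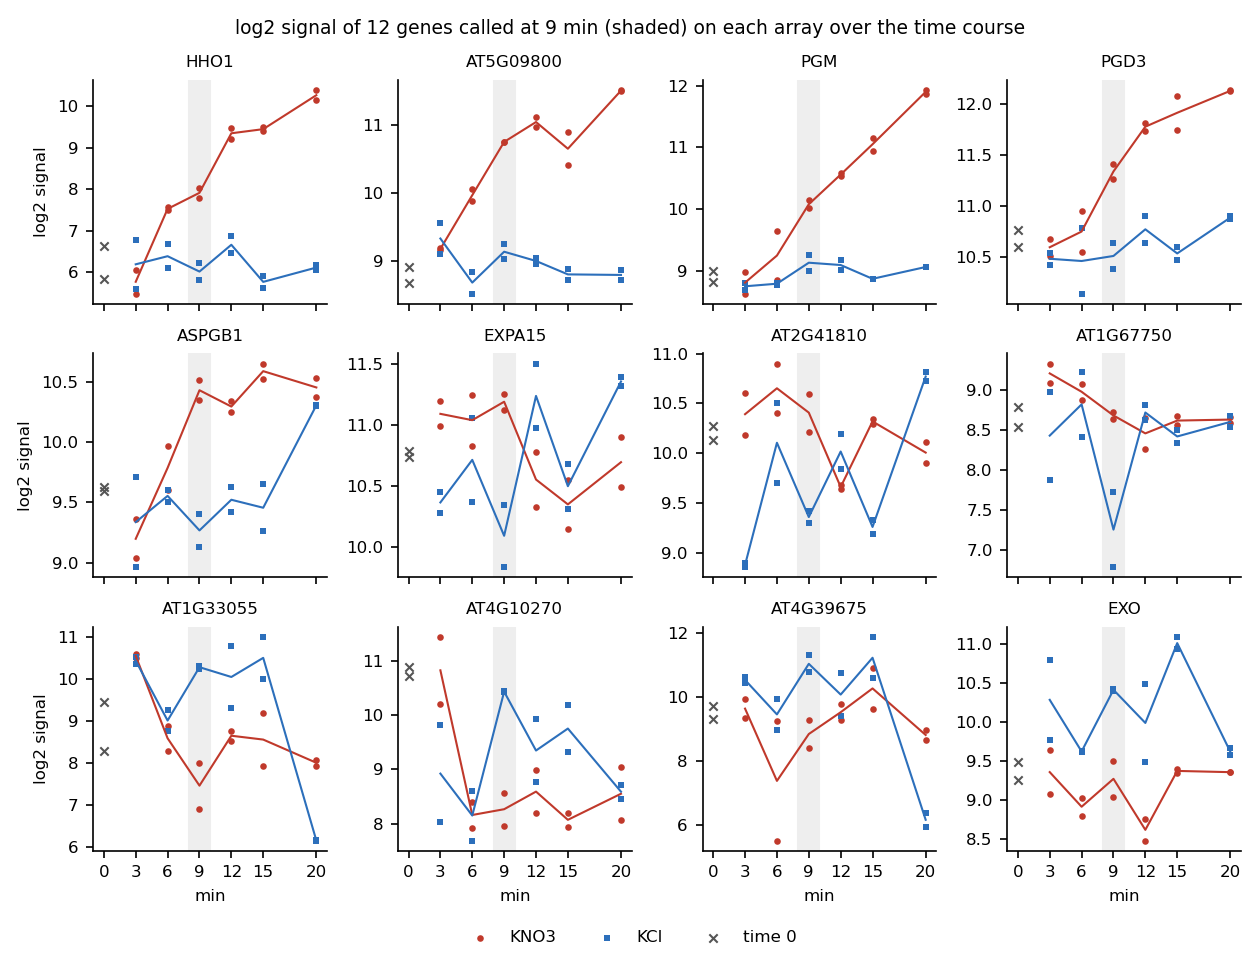
Log2 signal on each array (points) and mean over the 2 arrays (lines) from time 0 to 20 min for 12 genes called at 9 min (shaded), KNO3 in red and KCl in blue. In the top row KNO3 leaves a flat KCl line, and in the bottom row KCl lies above KNO3 at 9 min. In the middle row KCl lies below KNO3 at 9 min and meets or passes it by 20 min, though for AT2G41810 it lies below again at 15 min. The arrays at 3 and 6 min are drawn but were not in the fit.

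Some of the largest falls had KCl arrays above time 0, and others had KNO3 arrays below it. AT1G33055 read 257 and 121 with KNO3 against 1210 and 1273 with KCl, and 697 and 312 at time 0. The groups did not overlap and time 0 lay between them. The log2 fold change was -2.81 ± 0.49 (7.03-fold, adjusted p 0.015), and the adjusted p was 0.29 without KNO3 replicate 2, 0.054 without KCl replicate 1 and 0.24 without KCl replicate 2. AT4G39675 read 624 and 339 with KNO3 against 1757 and 2535 with KCl, and 849 and 643 at time 0 (log2 fold change -2.2 ± 0.48, adjusted p 0.047). AT4G10270 differed from these in its levels at time 0, which were 1878 and 1677, near the KCl arrays at 1365 and 1392 and above the KNO3 arrays at 249 and 379 (log2 fold change -2.16 ± 0.38, adjusted p 0.014). AT4G10270 was lower with KNO3 than at time 0 by a log2 of -2.53 (adjusted p 0.002). The calls of AT4G39675 and AT4G10270 were lost with each of the 4 arrays left out (adjusted p 0.077 to 0.6 and 0.054 to 0.22).

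These 3 loci stand on a list of 33 genes known for induction under low oxygen in Arabidopsis. The list was written from general knowledge after the falls had been seen, so it gets no test, supports nothing, and its counts are a description. A shorter list of 8 low-oxygen genes had no named probe set. On the list of 33 a named probe set existed for 18 genes, and all 18 had a log2 fold change below 0. Their median was -1.39 and their range -2.81 to -0.32, against a median of -0.06 over all probe sets. Called lower were 7 of the 18, beside 0.255% of all probe sets. AT3G27220 (-1.77, adjusted p 0.024), AT5G44730 (-1.48, adjusted p 0.044), AT5G47060 (-0.66, adjusted p 0.026) and AT1G26270 (-0.66, adjusted p 0.044) were the other 4, and each lost its call when any of at least 3 of the arrays was left out. Without KNO3 replicate 1 the number called was 2, without KCl replicate 1 it was 1, and without either of the other arrays, or without the trend, it was 0. All 18 stayed below 0 with an offset of 32 and after quantile normalization.

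Members with known functions were among those that did not pass. PDC2 (AT5G54960), a pyruvate decarboxylase of ethanol fermentation, read 2409 and 1955 with KNO3 against 4006 and 4832 with KCl, and 2989 and 2513 at time 0 (-1.02, adjusted p 0.17). AT3G10040 (HRA1, hypoxia response attenuator) read 53.1 and 60.3 with KNO3 against 231 and 190 with KCl, and 390 and 159 at time 0 (-1.89, adjusted p 0.14). CML38, a calmodulin-like calcium sensor also on the touch list, read 646 and 465 with KNO3 against 1349 and 1330 with KCl (-1.29, adjusted p 0.085). In each of these 3 genes both KNO3 arrays lay below both KCl arrays. Over the list, the median was -0.88 for KNO3 against time 0 and 0.44 for KCl against time 0.

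The median salt difference of the low-oxygen list changed sign by 20 min. It stood at -0.77 after 12 min, at -1.57 after 15 min and at 0.8 after 20 min, when 13 of the 18 lay above 0. AT1G33055 read 269 and 246 with KNO3 at 20 min against 71.5 and 71.6 with KCl, so the KCl arrays, the highest at 9 min, were then the lowest. The gap at 20 min was 4.66 above that at 9 min for AT1G33055 (adjusted p 0.0055) and 4.86 for AT4G39675 (adjusted p 0.0033), and the difference of the gaps passed, in this direction, for 9 of the 18 (0.554% of all probe sets). At 20 min itself 5 of the 18 were called higher (0.884% of all probe sets). The list was written after the falls at 9 min had been seen, and the differences of the gaps share the 9 min arrays. Choosing genes by low values at 9 min favours a higher gap later, so these counts are a description. The labels give no oxygen level.

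Other falls had no annotation or lay outside that list. AT1G52790 read 85.3 and 65.8 with KNO3 against 329 and 230 with KCl, and 97.6 and 153 at time 0 (log2 fold change -1.88 ± 0.33, adjusted p 0.014). AT1G52820 (-1.57, adjusted p 0.044) and AT1G52800 (-1.17, adjusted p 0.046) lie close to it on the same chromosome in the TAIR10.1 gene table, and whether their probe sets share signal was not tested. Each of these 3 calls was lost with any of the 4 arrays left out. EXO, the EXORDIUM gene, known for promotion by brassinosteroid and a role in cell expansion, read 724 and 527 with KNO3 against 1369 and 1351 with KCl, and 719 and 613 at time 0 (log2 fold change -1.14 ± 0.23, adjusted p 0.032). The KNO3 arrays of EXO overlapped time 0, and it was lower again with KNO3 at 12 min (-1.37, adjusted p 0.006) and 15 min (-1.64, adjusted p 0.00085) but did not pass at 20 min (-0.26, adjusted p 0.82). The call of EXO at 9 min was lost with any of the 4 arrays left out. AT4G37240 stood at -1.29 at 9 min (adjusted p 0.012), with 168 and 127 with KNO3 against 361 and 353 with KCl, and was the only fall called lower at all 3 later times (-0.98, adjusted p 0.037 at 20 min). The MADS-box gene AGL79 (-2.52, adjusted p 0.025) was dim, with 15 and 6.75 with KNO3 against 49.3 and 67.6 with KCl. Its call was lost with an offset of 32 (adjusted p 0.056), with the spread from all 26 arrays, with the 4 arrays at 9 min alone and without the trend. The log2 fold change of AGL79 ran from -3.1 to -1.08 over the alternatives.

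The fixed lists of hormone genes, which do not hold EXO, gave 1 call, a rise (0.435% of all probe sets were called higher). BAT1 (AT4G31910), an acyltransferase that inactivates brassinosteroids, read 2264 and 2128 with KNO3 against 1474 and 1198 with KCl, and 1901 and 1963 at time 0 (log2 fold change 0.72 ± 0.13, adjusted p 0.014). It was the only 1 of 17 listed brassinosteroid genes with a named probe set, and KCl was lower than time 0 (-0.54, adjusted p 0.042). The call of BAT1 was lost with the 4 arrays at 9 min alone and without the trend. Its log2 fold change ran from 0.57 to 0.87 over the alternatives. None of 8 auxin genes with a named probe set passed, 2 had an unadjusted p under 0.05 (10.5% of all probe sets did), and their median was -0.17. The most distant were GH3.3, an auxin-conjugating enzyme (-2.69, adjusted p 0.18), and LBD29, a factor of lateral root formation (1.37, adjusted p 0.34), both dim. The cytokinin response regulators ARR15 (-0.6, adjusted p 0.86) and ARR16 (-0.49, adjusted p 0.83) and the ethylene factor EIN3 (-0.11, adjusted p 0.88) did not pass. Named probe sets were not at hand for the abscisic acid and jasmonate lists, which were not analysed here.

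**Figure D4:**
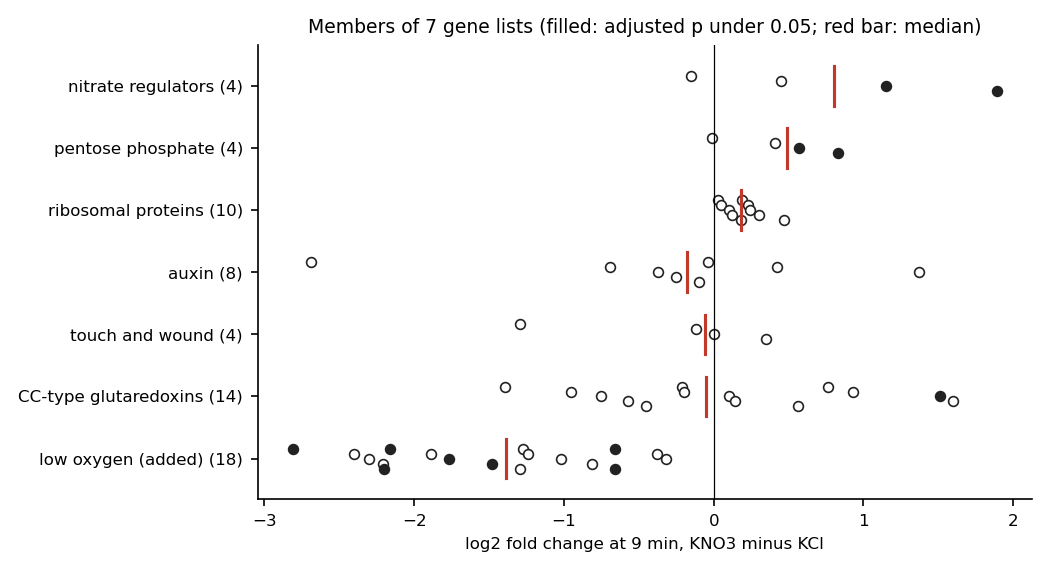
Log2 fold change at 9 min, KNO3 minus KCl, of the members of 7 gene lists that have a named probe set (1 point a gene, filled where adjusted p was under 0.05, red bar for the median). The medians run from 0.8 for the nitrate regulators to -1.39 for the low-oxygen list, which was drawn up after the values were seen.

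No ribosomal protein gene passed. All 10 with a named probe set lay above 0, from 0.03 to 0.47 with a median of 0.19, and 2 had an unadjusted p under 0.05, against 10.5% of all probe sets. After quantile normalization 8 lay above 0. The highest was AT3G11250, with 1212 and 1388 with KNO3 against 1058 and 831 with KCl (adjusted p 0.091). The single gene with a named probe set of 18 for sulfate, phosphate and potassium nutrition stood at -0.09. None of 4 touch and wound genes with a named probe set passed, and 2 had an unadjusted p under 0.05, against 10.5% of all probe sets. Among them the zinc finger gene STZ (ZAT10) read 2621 and 2208 with KNO3 against 1811 and 1960 with KCl (0.35, adjusted p 0.39), and 819 and 960 at time 0, so both salts stood above time 0 (1.44, adjusted p 5.6e-05 with KNO3 and 1.09, adjusted p 0.0015 with KCl).

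Of a list of 18 of the genes the study names, 9 had a named probe set and 4 rose at 9 min (0.435% of all probe sets). Besides HHO1 and BAT1 these were AT2G27830 (0.94, adjusted p 0.048) and AT1G64370 (0.86, adjusted p 0.017). AT1G64370 read 2712 and 2616 with KNO3 against 1555 and 1381 with KCl. The study chose the listed genes on these arrays, so their calls here are no independent evidence. Of these 4 rises the study lists HHO1 as regulated at 9 min, while BAT1, AT2G27830 and AT1G64370 are on its lists for other times. It also measured genes by QPCR, the 4 rises among them, on the array replicates and on a further replicate. That QPCR evidence is not weighed here. AT2G27830 lost its call with each of the 4 arrays left out, and AT1G64370 with any but KCl replicate 1. AT1G49000 had the largest fold change of the 9 (2.24), yet its KCl arrays were spread from 73.9 to 29.9, beside 187 and 264 with KNO3. It did not pass here (adjusted p 0.17), whereas the study lists it as regulated at 9 min by its own model and also measured it by QPCR.

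The comparisons at later times use other arrays, so the calls at 9 min could be followed in them. All of them share 1 estimate of the spread, however, so a probe set with a small spread is called more readily at every time and the counts are not independent. Over all probe sets the salts differed in 1.7%, 1.99% and 1.03% at 12, 15 and 20 min. Of the 99 rises, 42 (42.4%) were also called higher at 12 min, 52 (52.5%) at 15 min and 43 (43.4%) at 20 min, beside 0.892%, 1.09% and 0.884% of all probe sets. These made up 20.7%, 20.9% and 21.4% of the probe sets called higher at those times. Of the 58 falls, 11 (19%) were also lower at 12 min, 22 (37.9%) at 15 min and 1 (1.72%) at 20 min, beside 0.805%, 0.897% and 0.145% of all probe sets, and they were 6.01%, 10.8% and 3.03% of those called lower then. The median fold change of the falls was -0.39, -0.67 and 0.19 at 12, 15 and 20 min, and 41 of the 58 lay above 0 at 20 min. In all, 82 of the 157 were called the same way at 1 or more later times. With the spread estimated separately from time 0 and 9 min and from 12 to 20 min, also added after seeing the data, 33, 40 and 37 of 82 rises (40.2%, 48.8% and 45.1%) were higher again at 12, 15 and 20 min, beside 0.422%, 0.686% and 0.651% of all probe sets. Of 74 falls in that fit 4, 16 and 0 were lower again (5.41%, 21.6% and 0%), beside 0.321%, 0.44% and 0.0703%. Without the 2 KNO3 arrays with high photosynthesis signals, 19.2%, 32.6% and 27.9% of 172 rises and 3.03%, 12.9% and 1.52% of 132 falls recurred.

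Rises differed in how often they were called again, at 0, 1, 2 or 3 of the later times for 42, 13, 8 and 36 of them. Called higher at all 3 later times were 36, among them HHO1, HHO3, AT5G19120, AT5G09800, PGM, PGD1 and PGD3, with a median of 1.05 at 9 min and, by the choice of these genes, 1.46, 1.54 and 2.09 at 12, 15 and 20 min. Their medians against time 0 were 1.11 for KNO3 and 0 for KCl. Called higher at none were 42, among them AT1G67750 and EXPA15, with a median of 0.8 at 9 min and 0.31 for KNO3 and -0.55 for KCl against time 0. The gap at 20 min was called lower than that at 9 min in 0.448% of all probe sets. At 12 min the gap was called lower than at 9 min in 0.0967% of all probe sets, and at 15 min higher in 0.022% and lower in 0.022%. AT2G41810 was called higher at 9 min (1.05, adjusted p 0.002) and at 15 min (1.06, adjusted p 0.00052), but not at 12 min (-0.36, adjusted p 0.2). At 20 min AT2G41810 was called lower, with 1105 and 956 with KNO3 against 1799 and 1695 with KCl (-0.76, adjusted p 0.0082).

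**Figure D5:**
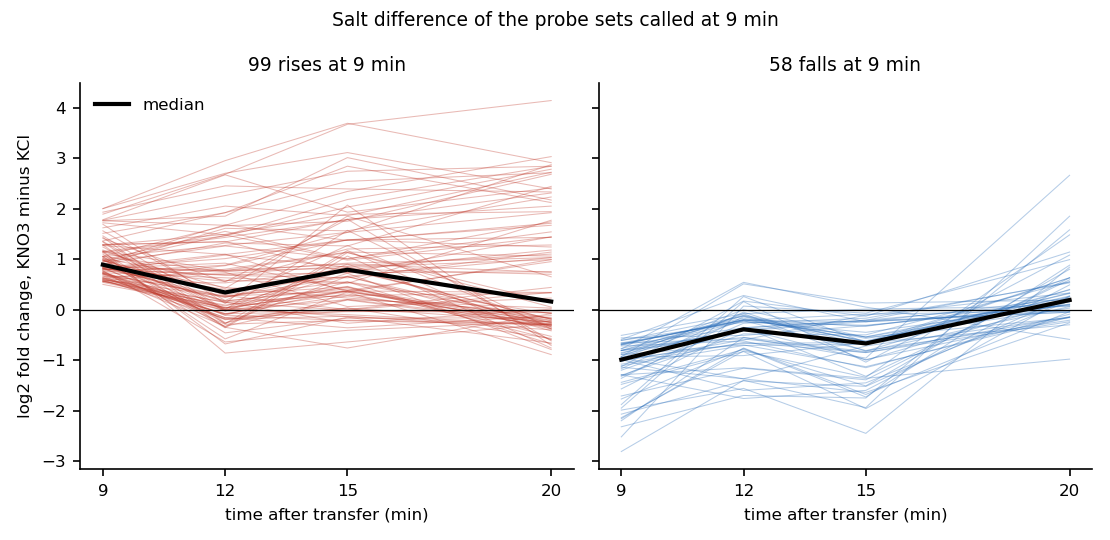
Log2 fold change, KNO3 minus KCl, at 9, 12, 15 and 20 min for each of the 99 rises (left) and 58 falls (right) called at 9 min, with the median in black. The median of the rises was 0.34, 0.79 and 0.16 at 12, 15 and 20 min, with single probe sets far above and below it, and that of the falls crossed 0 between 15 and 20 min.

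Replicates at 9 min were alike, with a correlation of log2 signals of 0.971 for each salt, in a range of 0.939 to 0.973 over the 9 groups of the fit. The 8 arrays at 3 and 6 min, with correlations of 0.923 to 0.932, did not enter the fit. The median signal was 219 and 216 on the KNO3 arrays and 227 and 220 on the KCl arrays.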

How the data were processed

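The authors deposited linear intensity values, computed with the MAS5 algorithm at a stated target median of 150. The 2% trimmed mean was 500 on each array, which is a different scale. Signals were taken as log2 without 64 control probe sets, and values below 1 were kept. limma 3.58.1 in R 4.3.3 fitted 9 groups over 18 arrays with eBayes and an intensity trend (9 residual and 6.78 prior degrees of freedom). All p-values are two-sided and Benjamini-Hochberg adjusted over 22746 probe sets within each comparison. With 2 arrays a group, they set each difference against the spread between replicate arrays, pooled over the 9 groups and moderated by limma. GEO's platform annotation pairs 13513 probe sets with 1 gene, 503 with several and 8730 with none, and symbols follow the TAIR10.1 gene table. The symbols HHO1 to HHO3, PGD1 and PGD3 are general knowledge. Named genes are the 18 largest rises and 12 largest falls with 1 gene, no overlap of the salts at 9 min and a brighter group above the 25th percentile of signal (52.8), list members past the threshold or, in lists with none, the 2 most distant, and genes the study names. Further members of the regulator, pentose phosphate and low-oxygen lists, and of EXPA, were named after their values were seen. The members and lists were chosen with earlier results of these data known. Alternatives were the spread from all 26 arrays or from the 4 at 9 min, no trend, and only probe sets brighter than the 40th percentile. Others were 32 added to each signal, quantile normalization, the replicate number as a block, and each array at 9 min left out. A version of the sequential linear model of the methods was also run on linear signals, for counts of calls only. It compared the salts at 9 min directly, whereas the study's model took time 0 as the baseline. After seeing the data, 2 KNO3 arrays with high photosynthesis signals were also left out, and 0 and 9 min were fitted apart from 12 to 20 min. The fit was first tested on simulated data. A search of promoters for motifs was not run. Arrays have no read depth, and their number limits the precision.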

Additional observations from a re-analysis of the deposited data

Results flagged for a closer look

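For 73 named genes the gap between the salts at a later time was set against that at 9 min, and 39 differences passed in limma (adjusted p under 0.05 over all probe sets, 0.141% called at 12 min, 0.044% at 15 min and 1% at 20 min). All values are log2 differences, the later gap minus that at 9 min, and they share the 9 min arrays. Many of these genes, those of the low-oxygen list among them, were chosen with their values at 9 min seen. That choice by itself favours a smaller gap later.

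At 12 min the gap was smaller than at 9 min for AT3G45680 (-2.02, adjusted p 0.0058), EXPA15 (AT2G03090, -1.78, adjusted p 0.031), AT5G04120 (-1.6, adjusted p 0.032), MSRB6 (AT4G04840, -1.46, adjusted p 0.031) and AT2G41810 (-1.41, adjusted p 0.019). At 15 min it was smaller for AT3G45680 (-1.8, adjusted p 0.016) and larger for PGM (AT1G78050, 1.24, adjusted p 0.014) and HHO2 (AT1G68670, 1.17, adjusted p 0.043). AT3G45680 read 761 and 762 with KNO3 against 428 and 272 with KCl at 9 min, and 341 and 342 with KNO3 against 674 and 568 with KCl at 12 min.

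At 20 min the gap had grown for HHO1 (AT3G25790, 2.25), PGM (1.89), HHO3 (AT1G25550, 1.63), HHO2 (1.35) and AT5G09800 (1.1), with adjusted p from 4.5e-05 to 0.017. It had shrunk or turned for rises of 9 min, by -2.03 for AT5G62340, -1.95 for AT5G26260, -1.92 for AT5G04120, -1.81 for AT2G41810, -1.75 for EXPA15, -1.46 for AT5G62210, -1.44 for AT3G45680, -1.4 for AT1G67750, -1.07 for MSRB6 and -1.02 for ASPGB1 (AT3G16150), with adjusted p from 0.00069 to 0.05. Of genes not called at 9 min it was lower for EXPA7 (AT1G12560, -1.12, adjusted p 0.05) and AT1G12230 (-0.7, adjusted p 0.05).

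Among falls of 9 min the gap at 20 min was higher for AT4G39675 (4.86), AT1G33055 (4.66), AGL79 (AT3G30260, 3.52), AT3G27220 (2.65), AT1G52790 (2.51), AT1G52820 (2.12), CP5 (AT1G64720, 1.85) and AT1G52800 (1.57), with adjusted p from 0.0033 to 0.048. Low-oxygen genes not called at 9 min moved the same way, namely AT5G10040 (5.74), AT2G17850 (5.01), AT4G33560 (3.89), AT1G19530 (3.65), AT4G27450 (3.19) and PDC2 (AT5G54960, 1.93), with adjusted p from 0.0055 to 0.041. AT2G17850 read 1140 and 294 with KNO3 against 2531 and 3229 with KCl at 9 min, and 783 and 458 with KNO3 against 96.8 and 87.2 with KCl at 20 min.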

How the results depend on the processing

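Counts of calls depended on how the spread was estimated, while the named calls kept their direction in the alternatives checked gene by gene. For KNO3 against KCl at 9 min the 157 calls (99 higher, 58 lower) became 90 (59 and 31) with the spread from all 26 arrays, 16 (16 and 0) without the intensity trend, 237 (140 and 97) with the filter at the 40th percentile and 343 (171 and 172) with the sequential linear model. Of the 157, 84, 16, 154 and 116 were among those. The sequential model as run here is not the study's own fit, which gave far fewer genes at 9 min, nearly all of them induced. The 4 arrays at 9 min alone gave 114 calls with 63 higher, and 82 of the 157 were among them. The offset of 32 gave 119 with 37 lower, and quantile normalization gave 150. Leaving out KNO3 12 min replicate 2 and KNO3 15 min replicate 1, chosen after seeing the data, gave 304 (172 and 132), 651 for KCl against time 0 and 444 for the difference of 20 and 9 min, while separate fits for 0 and 9 min and for 12 to 20 min gave 156, with 100 of the 157 among them. The share of higher calls was 63.1%, against 100% without the trend, 55.3% with the 4 arrays and 49.9% with the sequential model. It was 59.1% to 68.9% with the spread from all 26 arrays, the filter, the offset and quantile normalization. The separate fits called 82 higher and 74 lower.

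Leaving out each array at 9 min gave 17 to 133 calls, 16 to 106 higher and 1 to 27 lower. The lone array left in a group was then assumed to vary like the other groups. For KNO3 against time 0 the 175 calls became 76 to 163, and for KCl against time 0 the 328 became 47 to 261. The 228 calls for the difference of the salts at 20 min minus that at 9 min became 32 to 213, with 33 without KNO3 replicate 2 and 32 without KCl replicate 2. The 82 calls shared with a later time became 16 to 55, with 37 and 16 without KNO3 replicates 1 and 2 and 18 without KCl replicate 2.

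The spread from all 26 arrays gave 115 calls for KNO3 against time 0, 140 for KCl against time 0 and 126 for the difference of 20 and 9 min. Without the trend these were 80, 54 and 19, and 16 of the calls at 9 min recurred at a later time. The filter gave 505 for KCl against time 0. Of 38 named genes called at 9 min (14 of them falls), none reversed in the alternatives checked gene by gene, and 4 passed in all of these. The sequential model and the fits added after seeing the data were not checked for single genes. With each array left out, the log2 fold change of NRT2.5 ran from 0 to 0.16 and that of AT3G02360 from -0.02 to 0. Both changed sign at the end that rounds to 0, without KCl replicate 1 and without KCl replicate 2, and neither was called.

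Replicate numbers did not pair the samples. Over 36 pairs of groups, the deviations of same-numbered arrays correlated between -0.0708 and 0.0626 (median 0.00556), and none was over 0.1. With a replicate block the calls at 9 min were 154 (96 higher and 58 lower), 137 of them among the 157, and the other counts were 166 for KNO3 against time 0, 364 for KCl against time 0, 211 for the difference of 20 and 9 min and 73 shared with a later time.

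With 2 arrays a group and 9 residual degrees of freedom, a fold change that did not pass is not shown to be absent. Many calls (75 of 157) have no gene name here, so lists cover few of their members.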
